A study of Homo sapiens with 30 samples.

Results

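Pladienolide B (PB), a macrolide that blocks pre-mRNA splicing, was compared with its solvent DMSO in cells that carry the PHF5A 2xTL mutation. The members are the 6 libraries of these cells, out of 30 in the series, and were chosen by their labels alone: 3 libraries from cells given 2 nM PB and 3 from cells given DMSO, both for 3 h. Each PB library was paired with the DMSO library of the same clone. The cells are eHAP FNLS, a human line of the haploid HAP1 lineage that carries the cytosine base editor FNLS, and every genotype of the series shares this background. PHF5A 2xTL is labelled as a 6-nt insertion at T40-L41, made with the guide RNA PHF5A_6, and was studied in 3 independent monoclonal lines (A03_1.11, A03_1.12 and A03_2.12, called clones 1, 2 and 3 here). The genotypes set beside it are SF3B1 T1080I, SUGP1 E554K and SUGP1 G603N, each also of 3 monoclonal lines under both treatments, and control cells with a non-targeting guide RNA, of which 3 replicates of 1 line were treated. The spread among PHF5A 2xTL libraries is therefore one between clones, and that among control libraries one between cultures of a line. Per its design text, the series asked how mutations tied to PB resistance alter splicing. Gene counts show neither splice junctions nor the edited bases, so all results below are of RNA abundance per gene.

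PHF5A and SF3B1 are subunits of SF3b, the part of the U2 small nuclear ribonucleoprotein (snRNP) that holds the branch point of an intron. PB binds in a pocket that these proteins form together at the place of the branch point adenosine, and thereby stops spliceosome assembly. Introns are then retained or exons skipped, and many short-lived mRNAs decline while they are no longer replaced.

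The 6 libraries held 4.36e+07, 4.30e+07 and 3.48e+07 counts with PB and 5.22e+07, 6.10e+07 and 3.40e+07 counts with DMSO (clones 1 to 3), within the range of 3.16e+07 to 7.50e+07 over all 30 libraries. Mitochondrial genes took 10.8 to 12.9% of counts. Levels are given in CPM, computed with TMM-scaled library sizes. Of 17 haematopoietic marker genes, 14 stayed below 1 CPM in all 6 libraries, among them the leukocyte marker PTPRC (0.114 to 0.259 CPM), while GATA2 reached 45.0 to 59.4 CPM. KIT, of the same list, had 4.98 to 21.8 CPM. The other lists were mixed, with 5 of 12 mesenchymal, 5 of 11 epithelial and 3 of 10 neural markers below 1 CPM in all 6 libraries. VIM stood at 232 to 247 CPM and COL1A2 at 0.0934 to 0.820 CPM. EPCAM stood at 0.0431 to 1.28 CPM and KRT18 at 22.8 to 48.6 CPM. SOX2 stood at 713 to 994 CPM and DCX at 0.142 to 0.773 CPM. Of these lists, 12 of 17 haematopoietic, 12 of 12 mesenchymal, 9 of 11 epithelial and 9 of 10 neural markers had enough counts to be tested, and none of those passed between PB and DMSO in the clones.

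Clone 1 stood apart from the others under both treatments. Across the 11998 genes that averaged 4 CPM or more over all libraries, the log2 CPM of its libraries correlated at 0.964 to 0.970 with those of clones 2 and 3, which correlated with each other at 0.989 to 0.991. PB and DMSO libraries of the same clone correlated at 0.9905 to 0.9963. The lowest of these values, that of clone 3, lay within the range between clones 2 and 3. These are descriptions across genes, which share libraries and depth and are not independent. PB was compared with DMSO within each clone, as the labels pair the libraries, and values are given clone by clone below.

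A single gene passed between PB and DMSO in the PHF5A 2xTL clones. CDC40 (ENSG00000168438, chromosome 6, 110180141 to 110254275, hg38), which encodes the factor Prp17 of the second catalytic step of splicing, had 19.5, 19.8 and 19.7 CPM with PB, against 33.3, 35.9 and 33.7 CPM with DMSO in clones 1, 2 and 3. The treatments did not overlap, and the PB libraries had an SD of 0.190 CPM. CDC40 was thus 1.74-fold lower with PB (19.7 ± 0.190 against 34.3 ± 1.42 CPM, mean ± SD, n = 3 each). Its log2 fold change was -0.80 ± 0.12 (SE; 95% interval -1.05 to -0.55; adjusted p = 0.0107, edgeR quasi-likelihood test), with -0.77, -0.86 and -0.77 in the 3 clones. Of 31444 genes tested, this 1 call is 0.00318%, with none higher and 1 lower. At an unadjusted p under 0.05 there were 193 genes higher (0.614%) and 437 lower (1.39%), and DESeq2 called 2 genes, both lower. Among the 11998 genes averaging 4 CPM or more, 25 were higher and 323 lower at that level. The CDC40 call rests on all 3 clones and on the shared fit. With the 6 libraries fitted alone its adjusted p was 0.0685, and without clone 1, 2 or 3 it was 0.362, 1 and 0.556, each time with no gene called and a log2 fold change of -0.83 to -0.76. CDC40 overlaps METTL24 on the opposite strand, and no source used here states whether the counting kept strands apart.

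The level of CDC40 was also lower with PB in the other genotypes. It had 19.4 ± 1.60 CPM with PB and 35.3 ± 1.98 CPM with DMSO in SF3B1 T1080I, 23.6 ± 3.75 and 31.0 ± 2.39 CPM in SUGP1 E554K, 23.1 ± 1.72 and 28.8 ± 2.49 CPM in SUGP1 G603N, and 24.6 ± 2.38 and 33.4 ± 1.89 CPM in control (mean ± SD, n = 3 each). The share of tested genes that passed between PB and DMSO was 0.0159% in SF3B1 T1080I, 11.9% in SUGP1 E554K, 9.43% in SUGP1 G603N and 9.84% in control. The log2 fold changes of CDC40 were -0.87, -0.40, -0.32 and -0.45, and the test was passed in SF3B1 T1080I, SUGP1 E554K and control, whereas in SUGP1 G603N the adjusted p was 0.101. The responses of PHF5A 2xTL and control did not differ past the threshold (difference -0.36 ± 0.17 on the log2 scale, 95% interval -0.70 to -0.01, adjusted p = 0.473). The response in PHF5A 2xTL minus that in SF3B1 T1080I was 0.07 (95% interval -0.28 to 0.41, adjusted p = 1).

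**Figure D1:**
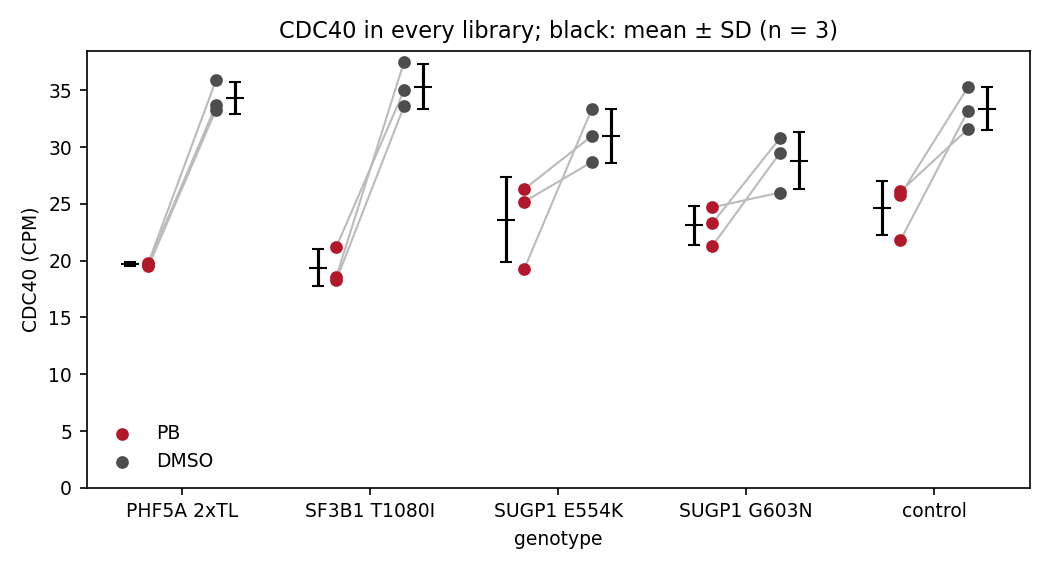
CPM of CDC40 (vertical axis) in every library of the 5 genotypes, PB in red and DMSO in grey, with a line between libraries of the same number and black marks for mean ± SD (n = 3). In PHF5A 2xTL the 3 PB libraries sit at 19.5 to 19.8 CPM and the 3 DMSO libraries at 33.3 to 35.9 CPM.

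PHF5A itself did not pass. It had 56.3, 55.8 and 57.5 CPM with PB and 56.6, 58.6 and 54.8 CPM with DMSO, so the treatments overlapped (log2 fold change 0.00 ± 0.10, 95% interval -0.21 to 0.20). Its pocket partner SF3B1 had 456, 494 and 469 CPM with PB and 461, 489 and 484 CPM with DMSO (-0.02 ± 0.08). In control SF3B1 rose with PB (log2 fold change 0.36, adjusted p = 0.00471), and the difference between the genotypes did not pass (-0.38 ± 0.12, adjusted p = 0.127). SUGP1, a G-patch protein that acts with SF3B1, had a log2 fold change of -0.01 ± 0.10 in the clones. A short in-frame insertion need not alter a transcript's level, so these values do not check the genotype labels.

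Among genes averaging 4 CPM or more over the 6 libraries, those of lowest p after CDC40 were also lower with PB. None of them passed in the edgeR test. MYOM1 (chromosome 18, 3066807 to 3220108), which encodes the sarcomere protein myomesin 1, had 81.1, 76.4 and 65.5 CPM with PB and 120, 101 and 82.2 CPM with DMSO. It was lower with PB in every clone, and the treatments did not overlap, although clone 1 with PB came close to clone 3 with DMSO. Its log2 fold change was -0.43 ± 0.09 (adjusted p = 0.562), and DESeq2 called it (adjusted p = 0.0272). ANLN (chromosome 7, 36389806 to 36453791), which encodes the cytokinesis protein anillin, had 99.0, 139 and 126 CPM with PB and 140, 165 and 164 CPM with DMSO, without overlap (-0.38 ± 0.09, unadjusted p = 0.00019, adjusted p = 1, edgeR). COG2 (chromosome 1, 230642489 to 230693982), a subunit of a Golgi tethering complex, had 11.9, 12.9 and 12.1 CPM with PB and 20.1, 18.9 and 17.1 CPM with DMSO, with no overlap (-0.60 ± 0.14, adjusted p = 1). TMCO6 had a log2 fold change of -0.62 ± 0.15 (adjusted p = 1).

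These 4 genes did not stand in the same relation to control. MYOM1 and ANLN fell in control cells, with log2 fold changes of -1.41 and -1.03, and the differences passed (0.98 ± 0.13, adjusted p = 4.29e-05, and 0.65 ± 0.12, adjusted p = 0.00346, edgeR). COG2 fell by 0.78 on the log2 scale in control, and its difference did not pass (0.17 ± 0.20, adjusted p = 0.936). TMCO6 had -0.27 in control, where it did not pass, and a difference of -0.35 ± 0.21 (adjusted p = 0.657).

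On the higher side, again among genes averaging 4 CPM or more over the 6 libraries, the gene of lowest p was SNHG5 (chromosome 6, 85660950 to 85678748). It is a host gene of small nucleolar RNAs (snoRNAs). It had 48.0, 53.5 and 65.3 CPM with PB and 35.7, 43.5 and 52.5 CPM with DMSO, higher with PB in each clone with overlapping ranges (log2 fold change 0.35 ± 0.10, unadjusted p = 0.00235, adjusted p = 1). In control SNHG5 rose 2.15-fold, and the difference passed (-0.76 ± 0.15, adjusted p = 0.00409, edgeR). The next were ENSG00000289192 (0.66 ± 0.20), OGFRP1 (0.54 ± 0.21) and the processed pseudogenes RPL7AP50 (0.39 ± 0.15) and ENSG00000213315 (0.36 ± 0.14), all with an adjusted p of 1. Counts of processed pseudogenes are uncertain, since they may share reads with their parent genes.

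The control response served as the yardstick for the clones. In control cells PB changed 3095 genes (9.84% of those tested), 809 higher (2.57%) and 2286 lower (7.27%). The same test in SF3B1 T1080I called 5 genes (0.0159%). Among genes averaging 4 CPM or more, the SE of a log2 fold change had a median of 0.117 in the PHF5A 2xTL clones and also 0.117 in control, a likeness set by the shared fit and equal n. The median SD of log2 CPM within a group was 0.156 with PB and 0.129 with DMSO in the clones, and 0.113 with PB and 0.171 with DMSO in control. The median size of the log2 fold change was 0.073 in the clones and 0.206 in control, and the middle 90 percent of genes ran from -0.245 to 0.15 in the clones and from -0.723 to 0.397 in control. For 11929 of the 11998 genes (99.4%), the 95% interval in the clones lay within a 2-fold change either way.

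None of the 10 genes with the largest rise in control passed in the clones. These genes, and the largest fallers below, were chosen for their control response, which also enters the difference between the genotypes, so the choice favours a large difference and its p describes these genes without being independent support. OVGP1 (oviductal glycoprotein 1, chromosome 1, 111414314 to 111427777) had 1.79, 1.24 and 1.74 CPM with PB and 1.20, 1.1 and 1.40 CPM with DMSO in PHF5A 2xTL, against 13.3 ± 0.705 CPM with PB and 1.22 ± 0.398 CPM with DMSO in control. The ranges overlapped in the clones, at a log2 fold change of 0.36 ± 0.28 (95% interval -0.22 to 0.93), whereas control stood at 3.46. The difference in response was -3.11 ± 0.39 (adjusted p = 3.52e-05, edgeR). The muscle protein gene CMYA5 had 4.66, 2.19 and 2.22 CPM with PB and 3.63, 1.97 and 2.78 CPM with DMSO, with overlap (0.08 ± 0.28), against 2.58 on the log2 scale in control (difference -2.50 ± 0.40, adjusted p = 0.000543).

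All 10 largest risers of control had a log2 fold change between -0.34 and 0.59 in the clones. Some were scarce there, such as ENSG00000272540, which averaged 0.912 CPM with PB and 0.867 CPM with DMSO in the clones. Among them ENSG00000269688, which lies within the hnRNP gene HNRNPL on the same strand, had the highest value in the clones, with 4.25, 4.32 and 6.41 CPM with PB against 3.36, 3.86 and 2.52 CPM with DMSO (0.59 ± 0.24). ENSG00000253667, a processed pseudogene within TCEA1, had the lowest, at 1.86, 2.19 and 2.51 CPM with PB and 2.58, 2.58 and 3.09 CPM with DMSO (-0.34 ± 0.23). RETREG1-AS1, an antisense gene of RETREG1, had 0.25 ± 0.33.

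The genes with the largest fall in control had values mostly below 0 in the clones, none of which passed. GOLGA2P5 (chromosome 12, 100156357 to 100173659), a pseudogene related to the golgin gene GOLGA2, had 12.4, 11.6 and 13.3 CPM with PB and 19.5, 14.9 and 19.1 CPM with DMSO, without overlap (log2 fold change -0.51 ± 0.15, adjusted p = 1). In control it had 2.83 ± 1.20 CPM with PB and 15.9 ± 4.39 CPM with DMSO (-2.54), and the difference was 2.02 ± 0.22 (adjusted p = 3.26e-06, edgeR). KRCC1 had 8.85, 11.9 and 13.9 CPM with PB and 9.31, 14.3 and 17 CPM with DMSO in the clones, with overlap (-0.21 ± 0.19), against -2.44 in control. RSKR, which encodes a kinase, had 11.5, 19.3 and 20.7 CPM with PB and 14.7, 21.4 and 26.1 CPM with DMSO, also with overlap (-0.28 ± 0.14), against -2.24 in control (difference 1.96 ± 0.20, adjusted p = 2.29e-06).

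In the clones 9 of the 10 largest fallers of control had a log2 fold change below 0, from -0.51 to -0.19, and KLRA1P, a lectin receptor pseudogene, had 0.02. KCNAB3, a potassium channel subunit gene, was lower in each clone, with 11.5, 13 and 13 CPM with PB against 18.2, 16.6 and 15.6 CPM with DMSO (-0.43 ± 0.16). KLF15, a transcription factor gene, had 9.92, 13.5 and 14.5 CPM with PB against 16, 13.1 and 13.7 CPM with DMSO, so that clone 1 alone was lower (-0.69, 0.05 and 0.08 in clones 1 to 3). Clone 1 alone was likewise farther from 0 for YJEFN3 (-0.78, -0.26 and -0.29).

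**Figure D2:**
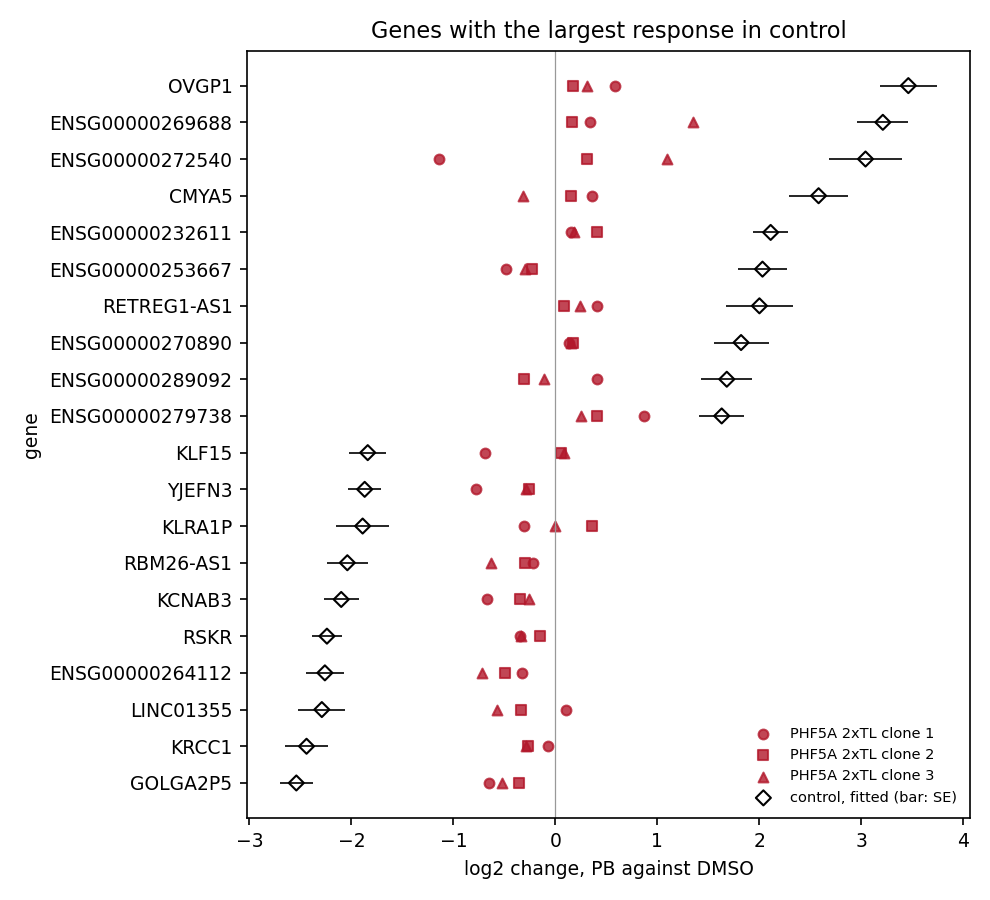
Log2 change of PB against DMSO (horizontal axis) for the 10 genes per direction with the largest response in control; red marks are the 3 PHF5A 2xTL clones and open diamonds the fitted control value with its SE. The fitted values of PHF5A 2xTL lie between -0.34 and 0.59 for the upper 10 genes and between -0.51 and 0.02 for the lower 10.

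Over all genes, the PB response of the clones differed from that of control for 533 genes (1.7%), of which 409 (1.3%) were higher and 124 (0.394%) lower in PHF5A 2xTL relative to control. The count was 275 without clone 1, 155 without clone 2 and 260 without clone 3. With DESeq2 it was 999, and without the pairing by clone it was 86. The response of the clones was then set against that of the SF3B1 T1080I clones, the other SF3b mutant. No gene passed for a difference (0 of 31444, with 332 at an unadjusted p under 0.05), and DESeq2 called 0. The SE of such a difference had a median of 0.165 on the log2 scale, and a miss of the threshold does not show equal responses.

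Genes that fell in control leaned the same way in the clones. The 2286 genes lower in control had a median log2 fold change of -0.111 in the clones (quartiles -0.196 and -0.037), against -0.606 in control, and 85.3% of them were below 0 in the clones. Over all tested genes the median in the clones was -0.003 and 50.6% were below 0. The 809 genes higher in control had a median of 0.026 in the clones, against 0.59 in control, and 41% of them were below 0. These sets were chosen on the control libraries, which the clones do not share, so the control medians describe the choice. Without clone 1 the medians in the clones were -0.099 and 0.027.

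Level had to be weighed here, because well expressed genes leaned lower as a whole. This lean was uneven between the clones. Relative to the mean of control DMSO libraries, clone 1 had a lower median with PB than with DMSO on every chromosome. On chromosome 1 (1180 genes) its medians were -0.08 with PB and 0.013 with DMSO (log2). Those of clone 2 were 0.025 and 0.026, and those of clone 3 were 0.012 and 0.024. Chromosome 1 does not stand for all chromosomes in clone 3, whose shift with PB varied in direction. Its medians were -0.19 with PB and -0.073 with DMSO on chromosome 4, and 0.12 and 0.024 on chromosome 19. At an average of 4 CPM or more, all 11998 genes had a median of -0.038 in the clones with 66.4% below 0, the 2017 genes lower in control had -0.105 with 86.2% below 0, and the 547 genes higher in control had 0.018 with 41.3% below 0. Of the 2017, 762 (37.8%) were lower in all 3 clones, as were 2328 (19.4%) of the 11998. Of the 547, 87 (15.9%) were higher in all 3 clones, as were 794 (6.62%) of the 11998. Among genes that fell in control, the medians of the clones followed those of control by size. The 9 genes that fell most in control (median -2.263) had a median of -0.38 in the clones, the 179 genes between -1.5 and -1 had -0.18, and the 789 genes between -0.5 and 0 had -0.076. The rising side showed no such order over most of its genes. The 338 genes between 0 and 0.5 in control had a median of 0.02 in the clones, the 180 genes between 0.5 and 1 had 0.008 and the 20 genes between 1 and 1.5 had -0.002. The 4 genes between 1.5 and 2 and the 5 genes above 2 had 0.171 and 0.249.

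Single genes were then counted in both. Of the 437 genes lower in the clones at an unadjusted p under 0.05, 189 fell in control, which is 43.2% of the clones' genes and 8.27% of the control's, while 7.27% of all tested genes fell in control. Of the 193 genes higher at that level, 13 rose in control (6.74% and 1.61%), while 2.57% of all tested genes rose there. Among the 11998 genes the counts were 174 of 323 lower and 9 of 25 higher, where 2017 fell and 547 rose in control. Relative to these backgrounds the overlap was larger on the higher side, the reverse of the order over all genes. That side rests on only 25 genes. Across the 11998 genes the log2 fold changes of the clones and control correlated at 0.434, and those of PHF5A 2xTL and SF3B1 T1080I, which also share no library, at 0.261 (Pearson, across genes, as descriptions). Over the 2564 of these genes that passed in control the values were 0.508 and 0.515.

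**Figure D3:**
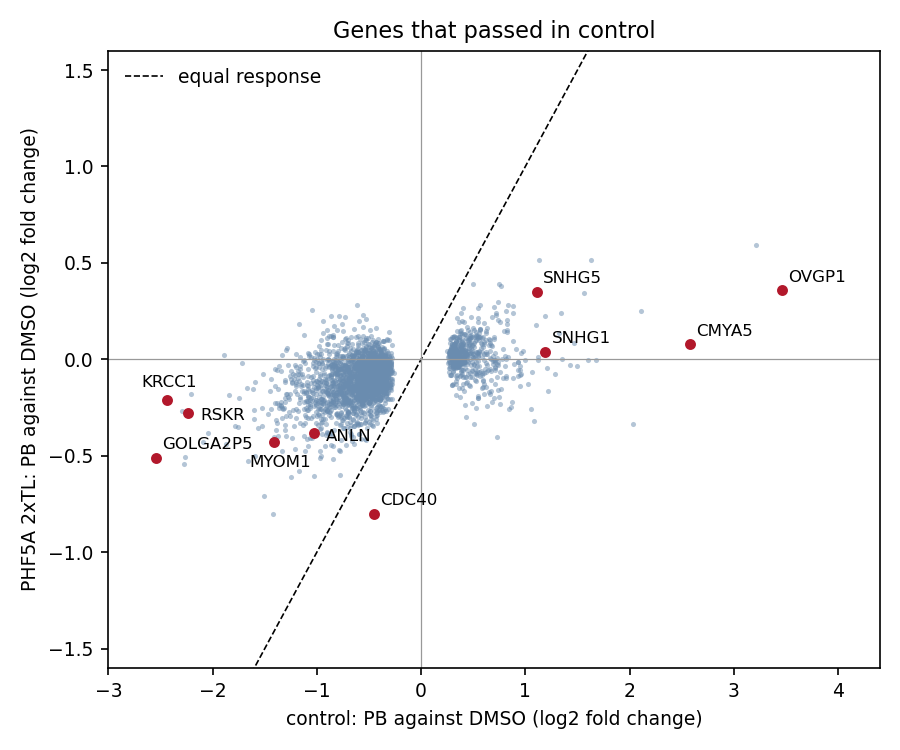
Log2 fold change of PB against DMSO in the PHF5A 2xTL clones (vertical axis) against that in control (horizontal axis) for genes averaging 4 CPM or more that passed in control; the dashed line marks an equal response, and the axes have different scales. The points lie flat along the horizontal axis, with medians of -0.105 and 0.018 in the clones for the genes that fell and rose, and CDC40 is farther from 0 in the clones (-0.80) than in control (-0.45).

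As a single figure for each clone, the slope of its log2 changes on the control log2 fold change over the 3095 genes was 0.144 in clone 1, 0.062 in clone 2 and 0.063 in clone 3. SF3B1 T1080I lines had slopes of 0.109 to 0.118 and SUGP1 lines 0.596 to 0.713. Control replicates, which entered the mean they were set against, had 0.827 to 0.974. Restricted to averages of 4 CPM or more, a setting added after seeing the data, the PHF5A 2xTL clones had 0.21, 0.089 and 0.156, and the SF3B1 T1080I lines had 0.155, 0.093 and 0.155. The changes of single clones had little in common. Their correlation across the 11998 genes was 0.138 between clones 1 and 2, -0.157 between 1 and 3 and 0.136 between 2 and 3. Over the 2564 genes that passed in control it was 0.22, -0.053 and 0.205 for the same pairs.

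**Figure D4:**
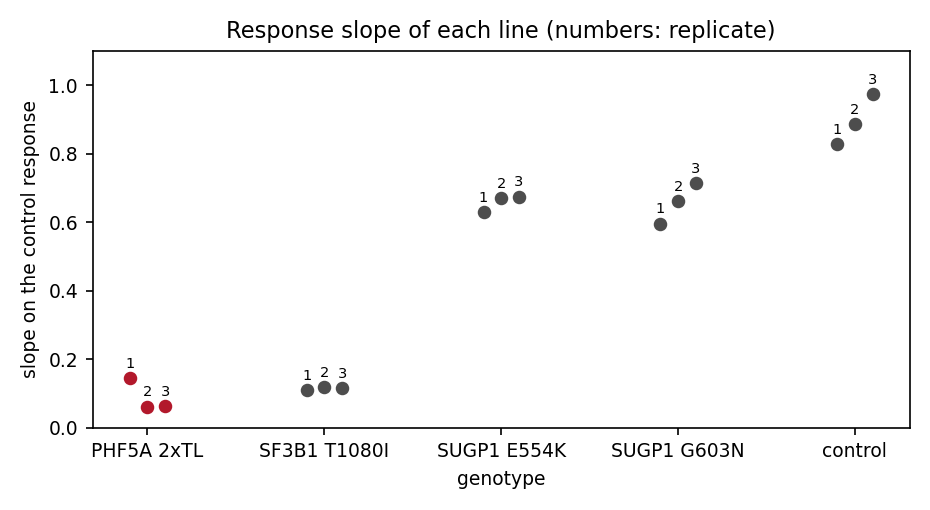
Slope through the origin of each line's log2 change (PB against DMSO) on the control log2 fold change over 3095 genes (vertical axis, no unit), by genotype, with the replicate number beside each point. The 3 PHF5A 2xTL clones lie at 0.062 to 0.144 and the control replicates at 0.827 to 0.974.

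Splicing factor genes were then read by their role. In the lists that follow, a count of none in the clones is what the share of 0.00318% over all genes gives for any list of this size. Control counts stand against 2.57% of all tested genes higher and 7.27% lower. Counts of genes that differed in response stand against 1.3% of all tested genes higher and 0.394% lower in PHF5A 2xTL relative to control. Unadjusted counts in the clones stand against 0.614% higher and 1.39% lower. Level matters here too. Among the 11998 genes averaging 4 CPM or more, 547 rose and 2017 fell in control. Of the same genes, 391 were higher and 84 lower in response. In the clones 25 of them were higher and 323 lower at an unadjusted p under 0.05. Lists of well expressed genes are better read against these counts. Of 28 genes of SF3b and the U2 snRNP, none passed in the clones (2 lower at an unadjusted p under 0.05; median log2 fold change -0.022), whereas in control 4 rose and 5 fell (median 0.106). RBM5, an RNA-binding regulator of exon choice, had 53.6, 56.8 and 60.4 CPM with PB and 73.3, 75.0 and 74.9 CPM with DMSO, without overlap (-0.39 ± 0.11, unadjusted p = 0.00153, adjusted p = 1, edgeR). It fell by 0.59 on the log2 scale in control, and the difference did not pass (0.20 ± 0.16, adjusted p = 0.814). RBM5 overlaps RBM6 on the same strand. SF1, the first protein to bind the branch point, had -0.19 ± 0.09 in the clones and -0.54 in control. The helicase gene DDX42, whose protein binds SF3b, had 245, 266 and 270 CPM with PB and 282, 292 and 262 CPM with DMSO (-0.10 ± 0.08). It fell by 0.76 in control, and this difference passed (0.66 ± 0.12, adjusted p = 0.00158).

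Later steps of splicing gave CDC40 as the single call. Of 30 second step and late factors, 1 fell in the clones (median -0.018), against 1 higher and 4 lower in control (median 0.063). DHX35, a helicase gene, had -0.22 ± 0.17 in the clones and -1.09 in control (difference 0.87 ± 0.24, adjusted p = 0.0614). PLRG1 and CDC5L, core subunits of the Prp19 complex, had -0.14 ± 0.09 and 0.03 ± 0.08. Of 15 U1 snRNP and 5' splice site genes none passed in the clones (median 0.004) and 3 rose in control (median 0.198). PRPF39, a U1 snRNP factor, had 66.7, 67.0 and 71.5 CPM with PB and 50.6, 56.7 and 67.3 CPM with DMSO, higher in each clone with overlapping ranges (0.24 ± 0.10, unadjusted p = 0.0177, adjusted p = 1). It rose by 0.88 on the log2 scale in control (difference -0.64 ± 0.14, adjusted p = 0.00991). Of 32 genes of the tri-snRNP and the core spliceosome, none passed in the clones (median -0.012), with 4 higher and 1 lower in control (median 0.174).

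Regulators of splice site choice were read in the same way. Of 28 SR proteins and splicing kinases, none passed in the clones (3 lower at an unadjusted p under 0.05; median -0.007), whereas in control 12 rose and 2 fell (median 0.242). TRA2A had 147, 140 and 166 CPM with PB and 135, 127 and 141 CPM with DMSO, ranges that just overlap (0.16 ± 0.08), and rose by 0.49 in control. The 3 lower genes were the SR protein kinases CLK2 (-0.29 ± 0.11), CLK1 (-0.27 ± 0.12) and CLK3 (-0.20 ± 0.10), named here after their values were seen, each with an adjusted p of 1. In control CLK2 fell by 0.43, while CLK1 and CLK3 had -0.04 and 0.11. No gene of this list differed in response between the genotypes. Of 25 hnRNP genes none passed in the clones (median -0.013) and 5 rose in control (median 0.088).

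Host genes of snoRNAs, whose spliced transcripts are often unstable, and decay factors came next. Of 17 snoRNA host genes, none passed (median -0.042), while 7 rose in control (median 0.331) and 5 of them differed in response. SNHG1 (chromosome 11, 62851988 to 62855914) had 155, 187 and 202 CPM with PB and 149, 175 and 206 CPM with DMSO, overlapping almost wholly (0.04 ± 0.09). In control it had 402 ± 19.6 CPM with PB and 177 ± 8.35 CPM with DMSO, and the difference was -1.15 ± 0.13 (adjusted p = 3.69e-06, edgeR). SNHG17 and SNHG3 had 0.15 ± 0.11 and -0.09 ± 0.09 in the clones, against 0.83 and 0.43 in control. Of 17 factors of nonsense-mediated decay none passed in the clones (median -0.022), and UPF2 fell in control (-0.36).

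Cell cycle genes were read as mitosis and replication lists. Of 41 genes of mitosis and G2/M, none passed in the clones (2 lower at an unadjusted p under 0.05; median -0.05), against 1 higher and 16 lower in control (median -0.212), and 7 differed in response. NDC80, a kinetochore gene, had 213, 117 and 115 CPM with PB and 252, 131 and 145 CPM with DMSO, lower in each clone, with clone 1 far above the others under both treatments (-0.25 ± 0.09, adjusted p = 1). In control it fell to 70.9 ± 3.24 CPM with PB, against 153 ± 8.49 CPM with DMSO (difference 0.86 ± 0.13, adjusted p = 0.000329). Of 50 DNA replication and E2F genes none passed in the clones (median -0.037), against 11 lower in control (median -0.048), and 5 differed in response. CDC6, which loads the replicative helicase, had 108, 127 and 123 CPM with PB and 129, 128 and 128 CPM with DMSO (-0.11 ± 0.09), against -0.86 in control. POLD3, a DNA polymerase subunit gene, had -0.04 ± 0.10, against -1.01 in control. In bulk RNA, fewer cells in a phase and less RNA per cell cannot be told apart.

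Stress and death programmes were described alike, against the same shares over all genes. None of 21 tested genes of the BCL2 family and cell death regulators passed (median -0.044), nor of 33 immediate early genes (-0.015), 27 targets of p53 (0.025), 29 genes of the ATF4 and integrated stress response (-0.056), 19 chaperone and heat shock genes (-0.021), 25 cholesterol biosynthesis genes (-0.074) or 27 interferon response genes (-0.01). In control these 7 lists held 1, 3, 0, 2, 0, 0 and 2 genes that rose and 3, 3, 4, 5, 0, 2 and 1 that fell, in the same order. Among the ATF4 targets SLC7A11, a cystine transporter gene named after its values were seen, had 51.0 ± 9.71 CPM with PB and 66.1 ± 8.81 CPM with DMSO (-0.38 ± 0.11, unadjusted p = 0.00118, adjusted p = 1), against -0.88 in control. The antiproliferative gene BTG2 had -0.01 ± 0.11 in the clones and -0.85 in control (difference 0.84 ± 0.16, adjusted p = 0.00413). KLF6 had 0.02 ± 0.09 and 0.55 (difference -0.53 ± 0.13, adjusted p = 0.0282).

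Abundant and intron-poor transcripts were also described. The 79 tested cytosolic ribosomal protein genes had a median of 0.017 in the clones with no call, against 0.262 in control, where 26 rose. The 13 mitochondrially encoded mRNAs had medians of 0.025 and 0.2, with no call in either. The 38 tested replication-dependent histone genes had a median of 0.244 in the clones and -0.242 in control, with no call in either. Since polyadenylated RNA was selected, histone values cover only the histone RNA that this step kept. Among protein-coding genes averaging 4 CPM or more, the median in the clones was 0.003 for 155 single-exon genes, -0.027 for 1316 genes of 2 to 4 exons, -0.037 for 3560 genes of 5 to 9, -0.055 for 3753 genes of 10 to 19 and -0.051 for 1820 genes of 20 or more. In control the same classes had medians of 0.222, 0.024, 0.007, -0.099 and -0.174, so the step from the fewest to the most exons was smaller in the clones.

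The clones also differed from each other under both treatments. They were compared over the 11975 genes averaging 4 CPM or more over the 6 libraries. In clone 1, both libraries lay at least 2-fold above all 4 libraries of the other clones for 51 genes and below them for 88. Clone 2 had 1 and 2 such genes and clone 3 had 5 and 4. The genes named here were chosen after their values were seen. SLC16A7, a monocarboxylate transporter gene, had 42.4 CPM with PB and 38.8 CPM with DMSO in clone 1, against 0.515 to 1.15 CPM in clones 2 and 3. MAP4, which encodes a microtubule-associated protein, had 335 and 339 CPM in clone 1, against 56.9 to 66.9 CPM. S100A11, a calcium-binding protein gene, had 0.129 and 0.285 CPM in clone 1, against 16 to 18.8 CPM, and SPARC, a matrix glycoprotein gene, had 0.885 and 0.988 CPM against 22.8 to 28.5 CPM. In clone 3 ELAPOR2 had 21 and 26.1 CPM, against 0.304 to 0.798 CPM in clones 1 and 2. None of these genes passed between PB and DMSO.

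Of the 88 genes low in clone 1, 22 lie on chromosome 21, which holds 127 of the 11975 genes compared. Relative to the mean of control DMSO libraries, the median of 126 genes of chromosome 21 stood at -0.40 with PB and -0.267 with DMSO in clone 1, at 0.611 and 0.619 in clone 2 and at 0.563 and 0.617 in clone 3 (log2). The 6 control libraries lay between -0.081 and 0.072. Clones 2 and 3 were thus 1.48-fold to 1.54-fold above control on this chromosome under both treatments, and the value barely moved with PB in these clones. DNA copy number was not measured here.

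**Figure D5:**
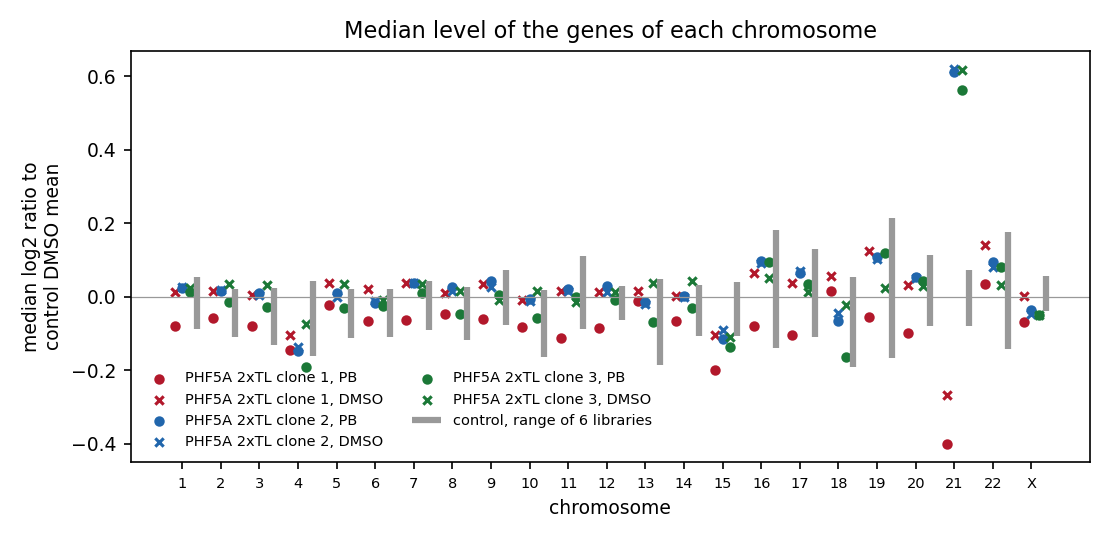
Median log2 ratio of each chromosome's genes to the mean of the control DMSO libraries (vertical axis) by chromosome (horizontal axis), for the 3 PHF5A 2xTL clones with PB (circles) and DMSO (crosses), with grey bars for the range of the 6 control libraries. On chromosome 21 clones 2 and 3 lie at 0.563 to 0.619 and clone 1 at -0.40 and -0.267.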

How the data were processed

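The authors deposited a table of estimated counts per gene, 61487 genes by 30 libraries, not normalized; 65.5% of values above 0 are not whole. Per the labels' protocols, polyadenylated RNA went into a CORALL total RNA library kit and was sequenced as paired-end 150-base reads. STAR, SAMtools 1.10 and UMI-tools are listed in the submitters' processing notes, as is the hg38 build. No source used here gives the counting program, annotation, strand setting or use of molecular identifiers, so overlapping genes and near-identical copies are uncertain. GENCODE release 29 supplied coordinates and exon numbers (58312 identifiers matched).

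Counts were rounded and tested with edgeR 4.0.16 (R 4.3.3, quasi-likelihood, TMM, filterByExpr by group, 31444 genes kept). The model held 15 pairs as a block (12 clones and 3 control cultures) and a PB effect per genotype over all 30 libraries, with 10 residual degrees of freedom. P-values were adjusted by the Benjamini-Hochberg method over all tested genes, and genes passed at an adjusted p under 0.05. SEs were derived from fold change and F and are approximate. Libraries of a mutant with the same number come from the same clone per the labels, whereas in control the number marks a replicate of 1 line. Deviations of same-numbered libraries from group means correlated at 0.471 to 0.787 in PHF5A 2xTL and 0.212 to 0.436 in control. The lowest value in PHF5A 2xTL was that of clone 3. Its PB library correlated at up to 0.35 with a DMSO library of another clone. The block takes out differences in level between clones. P-values thus set the PB change against its spread between clones, or cultures in control, pooled for each gene over all genotypes. That spread was moderated toward a trend across genes. The trend had more weight than the gene's own spread (a median of 17.6 prior against 10 residual degrees of freedom). Slopes used a prior count of 2.

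Named genes are the edited genes, genes called, the 5 of lowest p per direction, the 10 largest responders of control and the 5 largest differences per direction, each at a mean of 4 CPM or more, and called members of gene lists. Members and lists were chosen with earlier results of these data known. DESeq2 1.42.0, other scaling and filters, unpaired and smaller fits, and each clone or control replicate left out were the alternatives. The reference sequence at the edited site is not reported here.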

Additional observations from a re-analysis of the deposited data

Results flagged for a closer look

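The PB response of the PHF5A 2xTL clones differed from that of control for 533 genes by the test of the difference itself. Values below are differences in log2 response, PHF5A 2xTL minus control, each past an adjusted p of 0.05 (edgeR).

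Differences below 0 mean a higher log2 fold change in control than in the clones. They were found for OVGP1 (-3.11), CMYA5 (-2.50) and RETREG1-AS1 (-1.75). They were also found for the unnamed genes ENSG00000272540 (-2.98), ENSG00000269688 (-2.62), ENSG00000253667 (-2.37), ENSG00000232611 (-1.86), ENSG00000289092 (-1.68) and ENSG00000270890 (-1.67). Among snoRNA host genes they were found for SNHG1 (-1.15), SNHG5 (-0.76), SNHG17 (-0.67), SNHG3 (-0.53) and GAS5 (-0.52), and among the other lists for PRPF39 (-0.64) and KLF6 (-0.53).

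Differences above 0 mean a lower log2 fold change in control than in the clones. They were found for KRCC1 (2.23), ZNF653 (2.0), GOLGA2P5 (2.02), LINC01355 (2.02), RSKR (1.96), KLRA1P (1.91), ENSG00000264112 (1.76), KCNAB3 (1.67), RBM26-AS1 (1.66), KLF15 (1.66) and YJEFN3 (1.43). The 5 replication genes were POLD3 (0.97), CDC6 (0.76), RFC1 (0.65), ORC2 (0.62) and MCM10 (0.54). The 7 mitosis genes were NDC80 (0.86), ANLN (0.65), CKAP2 (0.57), TOP2A (0.54), AURKA (0.54), KIF23 (0.50) and BUB1B (0.45). Further genes were MYOM1 (0.98), BTG2 (0.84), SESN2 (0.78), XPC (0.69) and DDX42 (0.66). Genes named for their response in control enter this test with those same control values, which favours a large difference. Groups of 3 libraries are too small for a test of single outlying libraries.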

How the results depend on the processing

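In the PHF5A 2xTL clones the count of 1 gene was the same without the replicate block, with RLE size factors and without the 12 SUGP1 libraries. It was 2 without the low-count filter (CDC40 and ENSG00000283907), 2 with DESeq2 (CDC40 and MYOM1, -0.43), 0 with the 6 libraries fitted alone and 0 without any clone. CDC40 had -0.79 in the fit of the 6 libraries alone and -0.83 to -0.76 without a clone, where it did not pass. The difference from control counted 533 genes, against 86 without the pairing, 885 with the compared genotypes alone, 999 with DESeq2, 1490 without the SUGP1 libraries and 155 to 303 with a clone or control replicate left out. The count in control was 3095, against 1395 without the block, 5331 without the SUGP1 libraries and 1744 to 1996 with a replicate left out. The difference from SF3B1 T1080I counted 0 genes, and 2 without the low-count filter. The cause of these shifts was not tested. Leaving out the SUGP1 libraries, and slopes over genes of at least 4 CPM, were chosen after seeing the data. Those slopes were 0.21 in clone 1 and 0.156 in clone 3, and genes at an adjusted p under 0.001 in control gave 0.116 in clone 3. The medians over genes that passed in control ran from -0.126 to -0.096 and from 0.017 to 0.052 over all settings.

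Of the other values of named genes in the clones, 644 kept their direction and side of the threshold and 21 changed sign, none of which passed in any setting. With 1 clone left out at a time they ran from -0.03 to 0.01 (SF3B1), -0.07 to 0.09 (SUGP1), -0.41 to 0.67 (ENSG00000272540), -0.10 to 0.27 (CMYA5), -0.14 to 0.17 (KLRA1P), -0.31 to 0.04 (KLF15), -0.04 to 0.08 (SNRPA), -0.08 to 0.02 (NCBP2), -0.14 to 0.02 (LSM8), -0.03 to 0.14 (SRSF4), -0.23 to 0.02 (PTBP2), -0.08 to 0.07 (HNRNPH2), -0.59 to 0.58 (BIRC3), -0.09 to 0.04 (BTG2), -0.02 to 0.04 (KLF6) and -0.19 to 0.10 (CCN1). SUGP1 and BTG2 had 0.01 in the fit of the 6 libraries alone, and BTG2 had 0.01 without the block. Depth limits low genes, where few 95% intervals are narrower than a 2-fold change.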
